A study of Mastomys natalensis with 4 samples.

Results

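Complement and acute-phase genes were followed in stomach lining of Mastomys natalensis, a rodent in which gastric endocrine tumours are common. The set was 8 genes chosen by their intensity difference between 16 and 8 weeks of treatment in these same samples: C2, C3, Cfb, Lbp, Saa3, Rarres2, Lcn2 and Itih3. A probe set, a group of short probes read together as 1 value, was included when the platform annotation gave it exactly 1 of these symbols. This found 10 probe sets of 7 genes, out of 8251 genes named in the series. No probe set used here carried the symbol C3, so C3 was not analysed here.

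Total RNA was hybridised to Affymetrix mouse U74 arrays. The 16-week group was 2 samples labelled neoplasia of enterochromaffin-like (ECL) cells, the histamine-storing endocrine cells of the stomach. The 8-week group was 2 samples labelled hyperplasia of the same cells. Both groups received loxtidine (loxitidine in the labels), a blocker of histamine H2 receptors that suppresses acid secretion, and untreated mucosa was not analysed here. The sources used here give neither the animals' ages nor whether 2 samples of 1 group were 2 animals. Time and lesion stage differ together.

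Complement is a cascade of plasma proteases and binding proteins that marks microbes and damaged cells. C2 supplies the protease of the classical and lectin pathway convertases and factor B (Cfb) that of the alternative pathway, and both convertases cleave C3. Acute-phase proteins are secreted in larger amounts during inflammation, mainly by the liver and also by epithelia, macrophages and fat, in response to cytokines such as interleukin 6, interleukin 1 and tumour necrosis factor. Lipopolysaccharide-binding protein (Lbp) passes bacterial lipopolysaccharide to CD14. Serum amyloid A3 (Saa3) is an acute-phase apolipoprotein made outside the liver in mice. Lipocalin 2 (Lcn2) withholds iron by binding bacterial siderophores, chemerin (Rarres2) attracts leukocytes and acts as an adipokine, and Itih3 is a heavy chain of the inter-alpha-inhibitors that attaches to hyaluronan in the extracellular matrix.

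The tissue label was set against its markers. The parietal cell pump subunit Atp4a read 4850 and 4034 at 16 weeks, versus 4442 and 5304 at 8 weeks, and the surface cell peptide Tff1 read 4220 and 4094 at 16 weeks, versus 4875 and 4910. at 8 weeks Of the ECL cell markers, chromogranin A (Chga) was bright, at 299 and 231 at 16 weeks, versus 141 and 242 at 8 weeks, while histidine decarboxylase (Hdc) stayed under 8 on every array. The median intensity per array was higher at 16 weeks, at 19.2 and 18.9, versus 15.45 and 17.3 at 8 weeks. A total of 9 bacterial hybridisation control probe sets were all dimmer at 16 weeks, by a mean log2 difference of -0.53. The 3′ to 5′ intensity ratio of beta-actin, a sign of RNA integrity, was 1.46 and 1.63 in the 16-week samples and 1.26 and 1.16 in the 8-week samples. That of Gapdh overlapped between the groups, at 0.89 and 0.65 in the 16-week samples and 0.71 and 0.59 in the 8-week samples. The number of arrays, 2 per group, limits the precision of every value below.

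The 7 genes did not share a direction. Lbp and C2 were higher at 16 weeks, Saa3 and Rarres2 were lower, and Cfb, Lcn2 and Itih3 differed little or in opposite directions on separate probe sets. Every difference is given on the log2 scale of intensity as 16 weeks minus 8 weeks, ± the standard error (SE) that limma computed with its pooled spread (n = 2 per group). Intensities under a floor of 12.15 were set to it, so a group wholly under the floor gives only a bound. More of each 16-week array lay above this floor, 62.4% and 62.3%, versus 55.3% and 57.9% at 8 weeks. The part of this shift in readings near the floor was not tested. Because the genes were chosen with this contrast in view, their values are a description with no test. All 10 probe sets passed the filter on dim signal, which asked for values above the floor on 2 arrays, and 6 of them were above it on all 4.

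**Figure D1:**
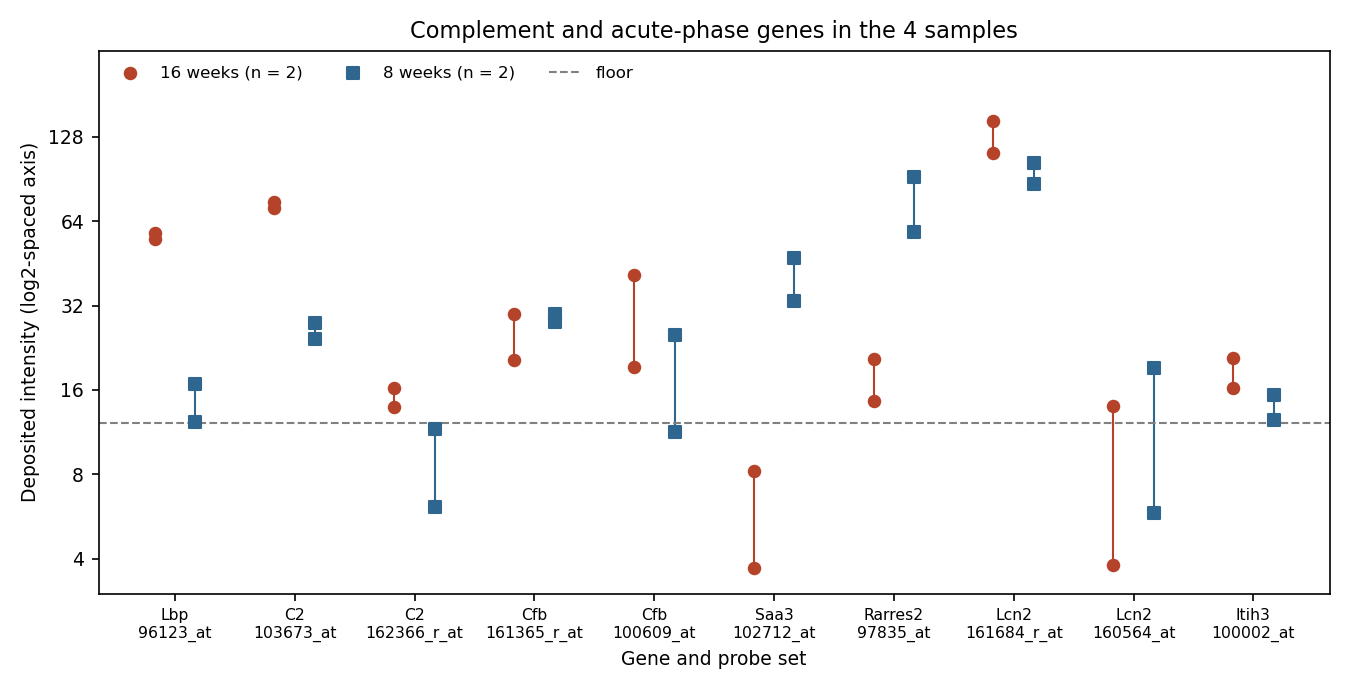
Deposited intensity (vertical axis, log2-spaced) of the 10 probe sets of the 7 genes, with 16-week samples as circles to the left of 8-week samples as squares, a line joining the 2 samples of a group and the floor of 12.15 dashed. Lbp and the brighter C2 probe set lie higher at 16 weeks, Saa3 and Rarres2 lie lower, and the groups of both Cfb probe sets and 1 Lcn2 probe set overlap.

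Lbp, the carrier of lipopolysaccharide, had the largest positive difference of the set, on a single probe set (96123_at). It read 57.9 and 55.1 at 16 weeks, versus 12.3 and 16.8 at 8 weeks. Both 8-week samples lay close to the floor, and the lower 16-week sample was 3.28 times the higher 8-week sample. The difference was 1.97 ± 0.27 (SE, n = 2 per group), which is 3.93-fold, and it ranked 9 from the top among the 7883 probe sets tested. Leaving out 1 sample gave 1.75 to 2.20.

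Of the convertase proteases, C2 lay higher at 16 weeks on its brighter probe set (103673_at). Its intensity was 71.5 and 75.3 at 16 weeks, versus 24.3 and 27.7 at 8 weeks. The 2 samples of each group nearly coincided, and the groups were separated 2.58-fold at their closest values. The difference was 1.50 ± 0.24, or 2.83-fold, and ranked 40 from the top. A second C2 probe set (162366_r_at) read 13.9 and 16.3 at 16 weeks and lay under the floor at 8 weeks, at 6.1 and 11.6. On the deposited scale C2 was thus at least 1.24-fold higher there. The letter r marks a probe set for which the array's makers relaxed their rules for choosing probes.

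Factor B, encoded beside C2 in the major histocompatibility complex of mouse and human, had overlapping groups on both its probe sets. Its plain probe set (100609_at) read 19.3 and 41.2 at 16 weeks, versus 11.3 and 25.2 at 8 weeks, a difference of 0.69 ± 0.53. Its brighter r probe set (161365_r_at) read 29.8 and 20.4 at 16 weeks, versus 28.0 and 29.9 at 8 weeks, a difference of -0.23 ± 0.29. On the plain probe set sample 2 exceeded sample 1 within each group by more than the groups differed, with log2 ratios of sample 1 over sample 2 of -1.09 at 16 weeks and -1.05 at 8 weeks. The plain difference was 0.14 without 16-week sample 2, 0.16 without 8-week sample 1, 1.21 without 8-week sample 2 and 1.24 without 16-week sample 1. The r probe set turned to 0.04 without 16-week sample 2.

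Saa3, a defence apolipoprotein of inflamed epithelium, macrophages and fat, was above the floor only at 8 weeks (102712_at). It read 3.7 and 8.2 at 16 weeks, both under the floor, versus 47.5 and 33.2 at 8 weeks. The groups did not overlap, and the level was at least 3.27-fold lower at 16 weeks, a floored difference of -1.71 ± 0.28. Flooring made both 16-week values equal, so this SE leaves out the spread between them. With a lower floor of 5.05 the difference was -2.63. Rarres2, the chemoattractant chemerin, was also lower at 16 weeks (97835_at). Its order with Saa3 is not given, because the Saa3 difference is a bound. It read 20.6 and 14.6 at 16 weeks, versus 91.8 and 58.5 at 8 weeks, without overlap. The difference was -2.08 ± 0.34, or 4.23-fold, and ranked 16 from the bottom. In bulk mucosal RNA such as this, fewer cells of a type and less RNA per cell cannot be told apart.

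Lcn2 and Itih3, the siderophore-binding lipocalin and the hyaluronan-attached heavy chain, differed little. The brighter Lcn2 probe set (161684_r_at) read 145 and 112 at 16 weeks, versus 103 and 86.9 at 8 weeks, a difference of 0.43 ± 0.27. The plain Lcn2 probe set (160564_at) read 14.0 and 3.8 at 16 weeks, versus 19.1 and 5.8 at 8 weeks, with sample 2 of each group under the floor, and gave -0.22 ± 0.31. The 2 probe sets of Lcn2 thus pointed in opposite directions, with overlap between the groups on the plain one. Itih3 (100002_at) read 20.8 and 16.3 at 16 weeks, versus 12.5 and 15.3 at 8 weeks, a difference of 0.41 ± 0.27, with all 4 values near the floor. Leaving out 1 sample gave 0.24 to 0.62 for the brighter Lcn2 probe set and 0.24 to 0.59 for Itih3, lowest without 16-week sample 1 and highest without 16-week sample 2 for both genes. The plain Lcn2 probe set turned to 0.10 without 8-week sample 1.

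Set against the whole array, 0 of the 10 probe sets passed limma's test at a Benjamini-Hochberg adjusted p of 0.05, as did 0 (0%) of the 7883 probe sets tested, of which 1100 had an unadjusted p under 0.05. Groups did not overlap, with 16 weeks above, for 5 of the 10, and this was so for 28.7% of all tested probe sets. With 16 weeks below it was so for 2 of the 10, and for 20.6% of all (7 of 10 and 49.3% in either direction). Past a 2-fold size as well, the counts were 2 of 10 above and 2 of 10 below, beside 3.92% and 3.06% of all. The genes were picked for this contrast, so these counts describe the choice. Most of the 10 were dim: ordered by mean intensity, 3 lay between 12.2 and 19.1 and 4 between 19.2 and 35.0, a band where the median difference of all probe sets was 0.18 and 90% of them lay between -1.04 and 1.18. That median was 0.19 in the dimmest band and -0.13 in the brightest.

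**Figure D2:**
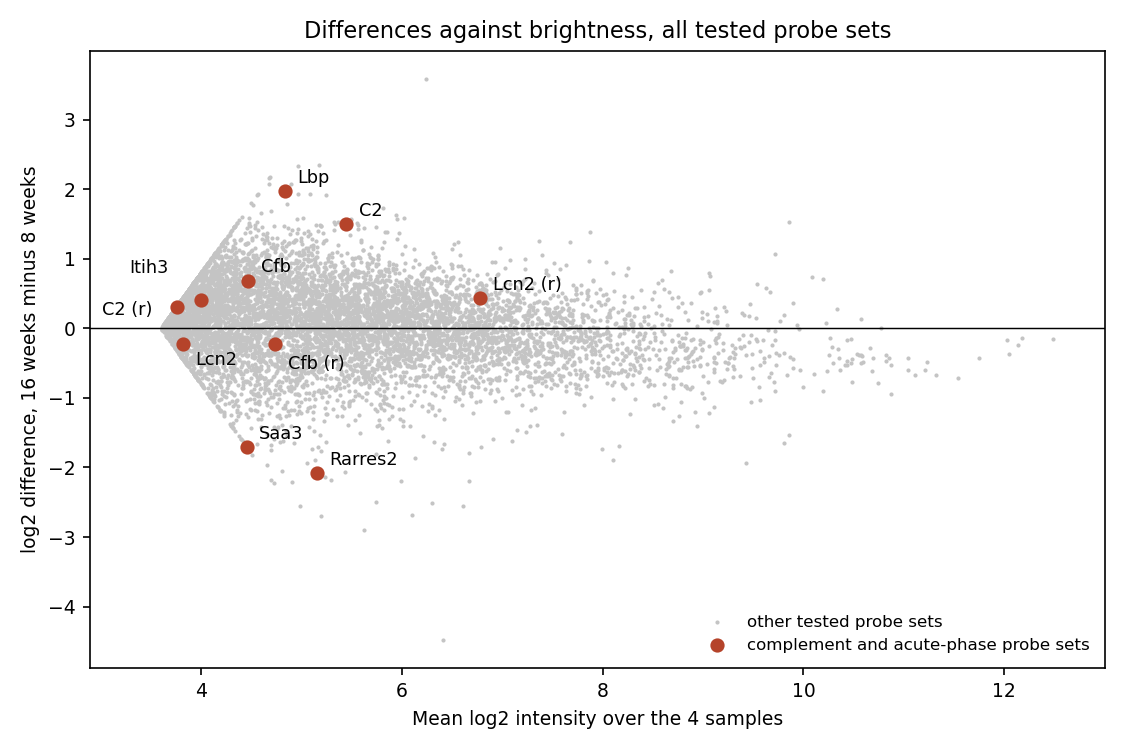
Log2 difference, 16 weeks minus 8 weeks (vertical axis), against mean log2 intensity over the 4 samples (horizontal axis) for 7883 tested probe sets in grey and the 10 of the complement and acute-phase genes in red, with r marking relaxed-rule probe sets. Lbp at 1.97 and C2 at 1.50 lie at the upper edge of the cloud, Rarres2 at -2.08 and Saa3 at -1.71 at the lower edge, and the other 6 between them.

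Intensities were kept on the deposited scale, and 3 other scalings were compared with it. The median of all tested probe sets was 0.09 as deposited, 0.02 after quantile normalization, -0.11 with the arrays on a common median and 0.54 with the arrays aligned on the hybridisation controls. Under these 3 scalings Lbp gave 1.75 to 2.35, the brighter C2 probe set 1.28 to 2.03, Rarres2 -2.30 to -1.55 and Saa3 -1.86 to -1.43, so each kept its direction. The r probe set of Cfb and the plain probe set of Lcn2 changed sign with alignment on the controls, to 0.30 and 0.01. Itih3 stayed positive but ranged from 0.15 to 0.80, and so did the r probe set of C2, from 0.17 to 0.56.

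**Figure D3:**
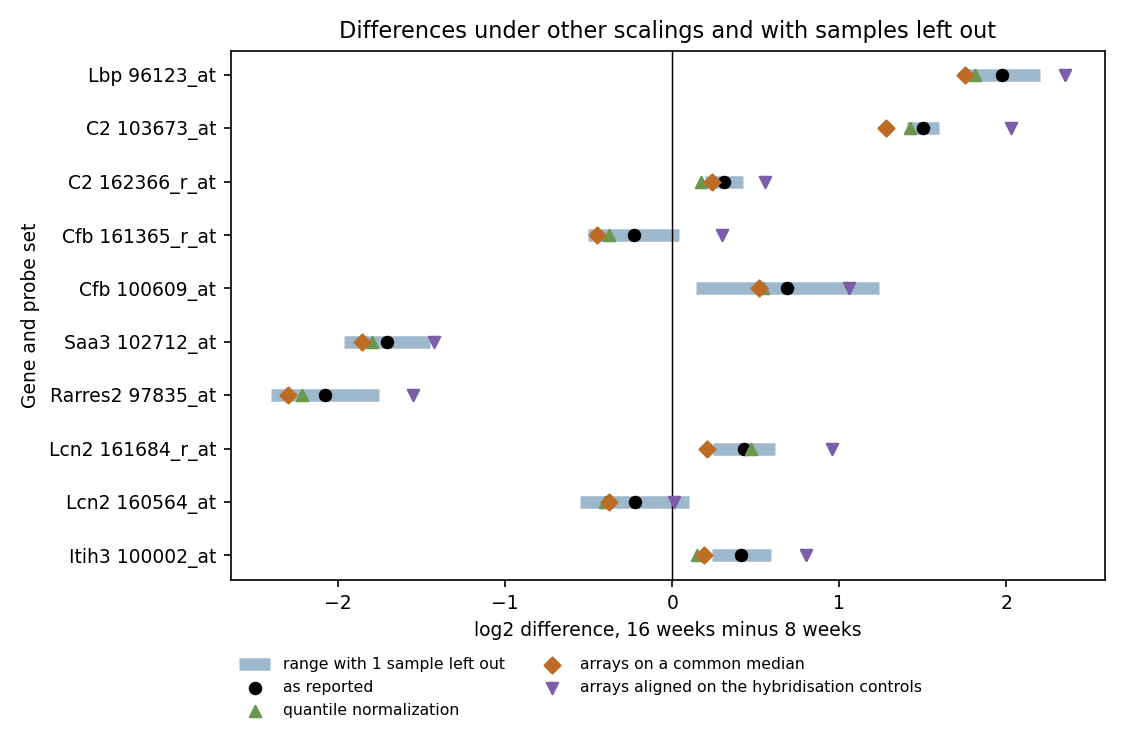
Log2 difference, 16 weeks minus 8 weeks (horizontal axis), of each probe set on the deposited scale (circle), after quantile normalization (triangle up), on a common median (diamond) and aligned on the hybridisation controls (triangle down), with the range from leaving out 1 sample as a bar. Lbp, the brighter C2 probe set, Saa3 and Rarres2 stay on their side of 0 throughout, whereas the r probe set of Cfb and the plain one of Lcn2 cross it.

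Profiles over the 4 samples were compared as the root mean square distance between log2 values centred on each gene's own mean. This is a description, since the genes were chosen for the same contrast. Among the 7 genes, by their brightest probe sets, Lbp lay nearest to C2 (0.26), Saa3 nearest to Rarres2 (0.26) and Lcn2 nearest to Itih3 (0.19), while Lbp and Rarres2 were furthest apart (2.07) with Saa3 taken at the floor. Of 5857 other genes the nearest to Rarres2 were Arpc4, a subunit of the actin-branching Arp2/3 complex (0.18), the peroxisomal thiolase Acaa1b (0.23) and Smtn, a smooth muscle cytoskeletal protein (0.24). Smtn read 24.1 and 21.2 at 16 weeks, versus 157 and 104 at 8 weeks. The nearest to Lbp were the skeletal muscle myosin Myh4 (0.11), the serine protease Prss12 (0.19) and the homeobox gene Tlx3 (0.20). Within a distance of 0.25 there were 5 genes for Rarres2 and 7 for Lbp.

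The rest of the complement cascade gave 0 calls. Of 43 other complement components, receptors and regulators 29 were named on the array and 21 tested, of which 13 were higher and 8 lower at 16 weeks (limma, 0 at an adjusted p of 0.05 and 4 at an unadjusted p under 0.05). The median difference was 0.15, beside 0.07 over all 5864 tested genes, of which 55.3% were higher and 13.3% had an unadjusted p under 0.05. The split was 9 higher and 12 lower on a common median, with a median of -0.04, and 19 higher and 2 lower with alignment on the controls. Of all tested genes 40.5% were higher on a common median, 51.6% after quantile normalization and 84.8% with alignment on the controls. The receptor of the C3a fragment (C3ar1), found on macrophages and other myeloid cells, read 25.0 and 23.8 at 16 weeks and lay under the floor at 8 weeks, at 7.4 and 10.5. It was at least 2.01-fold higher on the deposited scale (limma adjusted p = 0.309), and its floored difference ran from 0.93 to 1.25 under the 3 other scalings. The pore-forming component C9 read 21.0 and 22.4 at 16 weeks, versus 13.1 and 8.5 at 8 weeks (0.78 ± 0.23), and the lectin pathway protease Masp2, which cleaves C2 and C4, 36.1 and 39.1 at 16 weeks, versus 25.6 and 18.1 at 8 weeks (0.80 ± 0.28). Neither passed (limma adjusted p = 0.326 and 0.343).

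The following complement genes were picked for their role after their values had been seen. The 3 chains of C1q, which assemble into 1 recognition protein, went apart. C1qa read 28.1 and 54.3 at 16 weeks, versus 88.4 and 62.5 at 8 weeks (-0.93 ± 0.41). C1qb read 137 and 144 at 16 weeks, versus 67.3 and 100 at 8 weeks (0.77 ± 0.29), and C1qc 67.2 and 86.9 at 16 weeks, versus 64.6 and 68.3 at 8 weeks (0.20 ± 0.26). Inhibitors and regulators of complement held both directions. For 3 of them the groups did not overlap on the brightest probe set, with 16 weeks below, as was so for 20.6% of all tested probe sets. Cd59b, which blocks the membrane pore, read 366 and 425 at 16 weeks, versus 479 and 591 at 8 weeks (-0.43 ± 0.26). Cr1l, the rodent regulator Crry, read 208 and 128 at 16 weeks, versus 240 and 232 at 8 weeks (-0.53 ± 0.32), and the C1 inhibitor Serping1 138 and 118 at 16 weeks, versus 177 and 156 at 8 weeks (-0.38 ± 0.25). With alignment on the hybridisation controls these differences were 0.10 for Cd59b, 0.15 for Serping1 and -0.0015 for Cr1l, so 2 of the 3 changed sign. The groups overlapped for Cd59a (0.15 ± 0.25), a second gene for the pore-blocking protein, and for vitronectin (Vtn, 0.41 ± 0.46), which binds the assembling pore. Clusterin (Clu), which also binds it, gave -0.13 ± 0.32 with overlap on its brightest probe set and 0.91 ± 0.38 without overlap on another.

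Acute-phase and plasma proteins other than the members likewise gave 0 calls and no common direction. Of 46 genes 38 were named and 19 tested, with 11 higher and 8 lower. By limma 0 of them passed an adjusted p of 0.05 and 2 had an unadjusted p under 0.05, beside 13.3% of all genes. The median was 0.07 and the mean -0.09, of opposite sign, and the median was -0.03 after quantile normalization and -0.05 on a common median, with 10 and 9 of 21 genes higher. Alignment on the controls gave 16 of 21 higher, beside 84.8% of all genes. Prothrombin (F2), a liver clotting factor, read 14.8 and 12.6 at 16 weeks, versus 28.7 and 33.1 at 8 weeks (-1.17 ± 0.25, limma adjusted p = 0.301). The protease inhibitors Serpina1b and Serpina3n gave -0.89 ± 0.26 and -0.62 ± 0.32 (limma adjusted p = 0.326 and 0.431). Both F2 and Serpina1b also stand in the hepatocyte list below. Serpina1b belongs to a family of near-identical copies, and its probe set may read several of them.

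Relatives of Saa3 and Itih3 in that list, also picked after their values had been seen, had overlapping groups or lay under the floor. Saa2, a liver serum amyloid A, read 41.8 and 41.1 at 16 weeks, versus 45.5 and 25.1 at 8 weeks (0.29 ± 0.35), and -0.36 ± 0.52 on a second probe set, with overlap on both. Of the heavy chains related to Itih3, Itih5 read 43.6 and 23.9 at 16 weeks, versus 34.7 and 30.7 at 8 weeks (-0.02 ± 0.36), and Itih1, Itih2, Itih4 and the light chain precursor Ambp stayed under the floor on all arrays. The groups of haptoglobin (Hp), which binds free haemoglobin, did not overlap, at 69.3 and 96.0 at 16 weeks, versus 66.7 and 66.7 at 8 weeks (0.29 ± 0.27). Hp too was picked after its values had been seen, and 28.7% of all tested probe sets likewise lay without overlap, with 16 weeks above. On a common median its difference was 0.07.

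**Figure D4:**
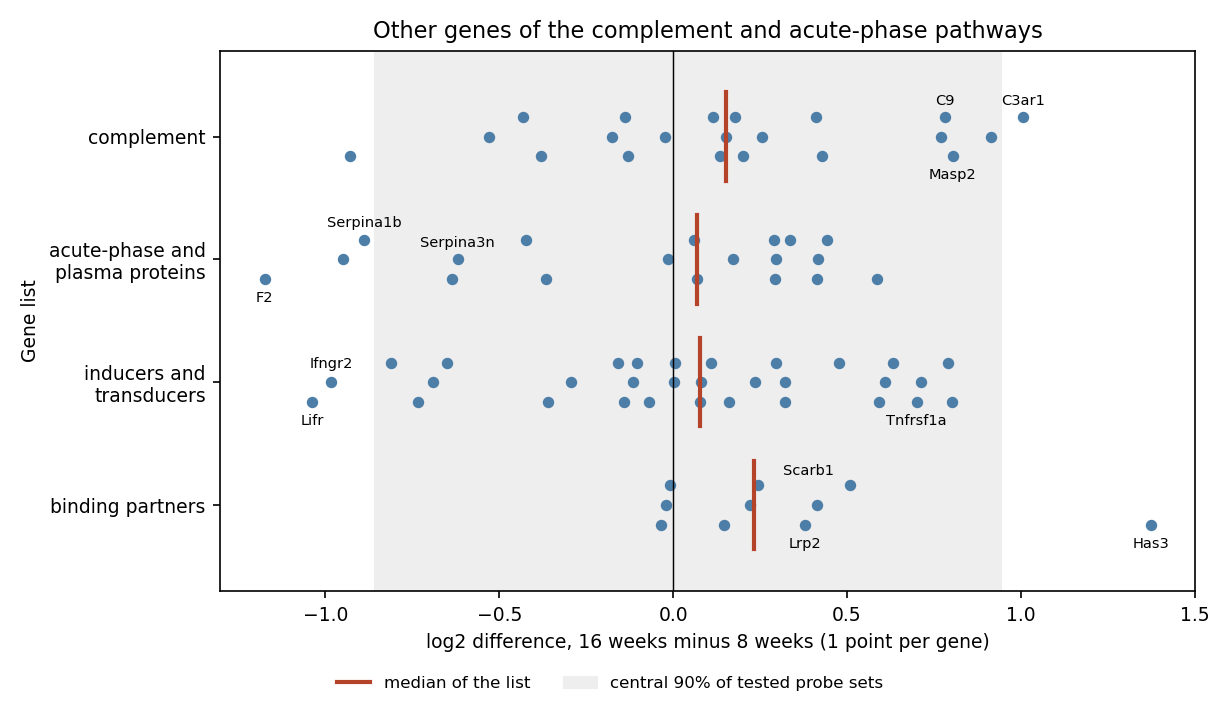
Log2 difference, 16 weeks minus 8 weeks (horizontal axis), of each tested gene in 4 lists of related genes, by brightest probe set, with the list's median as a red line and the central 90% of all tested probe sets shaded from -0.86 to 0.94. The medians lie between 0.07 and 0.23, and the points outside the shading include C3ar1, F2, Lifr, Ifngr2 and Has3.

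Main cytokines that induce acute-phase genes were not measured above the floor. Il6, Il1b, Tnf and Ifng, picked after their values had been seen, lay under the floor on every array. Of 53 inducers, receptors and transcription factors 45 were named and 31 tested, with 18 higher and 13 lower at 16 weeks and a median of 0.08. By limma 0 passed an adjusted p of 0.05 and 6 had an unadjusted p under 0.05, beside 13.3% of all genes. With the replicate block the latter were 2 of the 31, and 714 of all 5864 tested genes. On a common median 11 of 30 were higher, with a median of -0.18, and with alignment on the controls 24 of 30, beside 40.5% and 84.8% of all genes. The interferon gamma receptor chain Ifngr2 lay under the floor at 16 weeks, at 5.2 and 6.4, against 28.4 and 20.3 at 8 weeks. It was at least 1.98-fold lower on the deposited scale (limma adjusted p = 0.321), and its floored difference ran from -1.13 to -0.70 under the 3 other scalings. Lifr, the receptor of leukaemia inhibitory factor, read 14.8 and 18.8 at 16 weeks, versus 27.3 and 43.0 at 8 weeks (-1.04 ± 0.33, limma adjusted p = 0.329), but its 3 other tested probe sets gave 0.80, 0.46 and -0.06. The receptor Tnfrsf1a of tumour necrosis factor read 73.7 and 82.9 at 16 weeks, versus 45.4 and 51.0 at 8 weeks (0.70 ± 0.24, limma adjusted p = 0.342).

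The transcription factors that bind acute-phase promoters, named after their values had been seen, held both directions. Stat3, which relays interleukin 6 signals, read 162 and 149 at 16 weeks, versus 119 and 130 at 8 weeks (0.32 ± 0.24), and 75.4 and 79.5 at 16 weeks, versus 56.0 and 54.5 at 8 weeks on a second probe set (0.49 ± 0.23). Cebpb, an activator of acute-phase genes, read 32.3 and 24.1 at 16 weeks, versus 52.7 and 38.4 at 8 weeks (-0.69 ± 0.30). The NF-kappaB subunit Rela read 195 and 211 at 16 weeks, versus 189 and 217. at 8 weeks The differences of Stat3 and Cebpb did not pass the test, and they kept their direction under all 3 other scalings.

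Genes linked to the 7 proteins, such as binding partners, processing enzymes and hyaluronan genes, gave 0 calls among 10 tested of 25 listed. Of these 7 were higher and 3 lower, with a median of 0.23 that ran from 0.00 without 8-week sample 2 to 0.48 without 8-week sample 1. With all 4 samples 1 of the 10 had an unadjusted p under 0.05 by limma, beside 13.3% of all genes. With alignment on the controls 10 of 10 were higher, beside 84.8% of all genes, and on a common median 6 of 10, beside 40.5%. Hyaluronan synthase 3 (Has3), which makes the polymer that Itih heavy chains attach to, read 32.7 and 37.4 at 16 weeks, versus 15.0 and 11.2 at 8 weeks (1.37 ± 0.26, limma adjusted p = 0.301). The next 4 genes were picked after their values had been seen. The other synthases Has1 and Has2 gave -0.03 and -0.02. The Lbp partner Cd14 read 105 and 103 at 16 weeks, versus 87.7 and 126 at 8 weeks (-0.01 ± 0.28), with overlap between the groups. The chemerin receptor Cmklr1 stayed under the floor on all arrays. Lrp2, an endocytic receptor that takes up Lcn2, gave 0.38 ± 0.44, and Scarb1, a lipoprotein receptor that binds serum amyloid A, 0.25 ± 0.27 (limma adjusted p = 0.697 and 0.677).

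Markers of cells that can make these proteins were read beside them. Of 11 hepatocyte markers 8 were tested, 2 higher and 6 lower at 16 weeks, with summed intensities of 196 and 207 at 16 weeks, versus 529 and 202. at 8 weeks With alignment on the controls 4 of 8 were higher. Their median difference was -0.61, and 0.13 without 8-week sample 1, which stood apart in Apoa1 and Alb. Across whole arrays that sample correlated at 0.927 with 8-week sample 2. The samples of the 16-week group correlated at 0.909 with each other, and 16-week sample 1 at 0.915 with 8-week sample 2. Apoa1 read 15.6 and 11.6 at 16 weeks, versus 267 and 11.7 at 8 weeks, and Alb 25.4 and 14.4 at 16 weeks, versus 75.8 and 18.0 at 8 weeks. The 2 markers that were higher at 16 weeks, Apoa2 and Ttr, gave 1.22 and 0.59. Saa3 and Rarres2 were also highest in 8-week sample 1, and their differences without that sample were -1.45 and -1.75. Adipocyte markers numbered 10, with 6 tested, 2 higher and 4 lower, summing to 313 and 288 at 16 weeks, versus 411 and 389 at 8 weeks, with a median of -0.35 that was 0.18 with alignment on the controls. Adipoq, an adipocyte hormone picked after its values had been seen, read 17.3 and 14.9 at 16 weeks, versus 12.1 and 7.1 at 8 weeks, near the floor. Fabp4 was also higher (0.44), while Lpl, Pparg, Lipe and Lep gave -1.25, -0.88, -0.60 and -0.11.

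Fibroblast and smooth muscle markers had lower summed intensities at 16 weeks on the deposited scale. Of 9 fibroblast markers 5 were lower, summing to 2382 and 2282 at 16 weeks, versus 3611 and 3144 at 8 weeks. Their median was -0.19, but 0.34 with alignment on the controls and -0.49 with plain probe sets only. Col1a2 gave 0.52 on its r probe set, the one counted, and -1.86 on its plain one, while Pdgfra gave -1.10 on the one counted and 0.26 on another. Of 7 tested smooth muscle markers 6 were lower, summing to 1747 and 1677 at 16 weeks, versus 3332 and 2864 at 8 weeks. Intestinal-type markers, 5 of 5 tested lower, summed to 128 and 134 at 16 weeks, versus 1102 and 213 at 8 weeks, and their median of -1.46 was -0.31 without 8-week sample 1. Macrophage markers held both directions, 3 higher and 4 lower of 7 (7 of 8 higher with alignment on the controls, beside 84.8% of all genes), summing to 320 and 346 at 16 weeks, versus 316 and 320 at 8 weeks, with Adgre1 and Marco under the floor on all arrays. Their median of -0.01 changed sign under 7 of 11 alternatives and was 0.65 with plain probe sets only. Csf1r gave -0.18 on its r probe set, the one counted, and 0.93 on its plain one. Neutrophil markers were higher for 6 of 7 tested (4 of 6 on a common median), summing to 227 and 243 at 16 weeks, versus 190 and 198 at 8 weeks, with S100a9 and Ctsg under the floor. Pancreatic acinar markers were higher for 6 of 7, summing to 2475 and 7027 at 16 weeks, versus 3919 and 1264 at 8 weeks, and their median of 0.86 was -0.16 without 16-week sample 2. The ECL and neuroendocrine list, 4 of 6 higher, summed to 617 and 594.5 at 16 weeks, versus 464 and 531 at 8 weeks. The antral endocrine markers gastrin (Gast) and somatostatin (Sst) were both lower, with a median of -1.41 that stayed negative under every alternative, and summed to 158 and 205 at 16 weeks, versus 493 and 337 at 8 weeks. Gast read 25.8 and 63.0 at 16 weeks, versus 328 and 170.1 at 8 weeks, on its brightest probe set (-2.55 ± 0.55) and gave -4.48 and -2.55 on 2 others, while Sst gave -0.28 ± 0.23 and changed sign with alignment on the controls. No listed marker had an intensity of exactly 0. The part of these cells in the Lbp, C2, Saa3 and Rarres2 values was not tested.

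**Figure D5:**
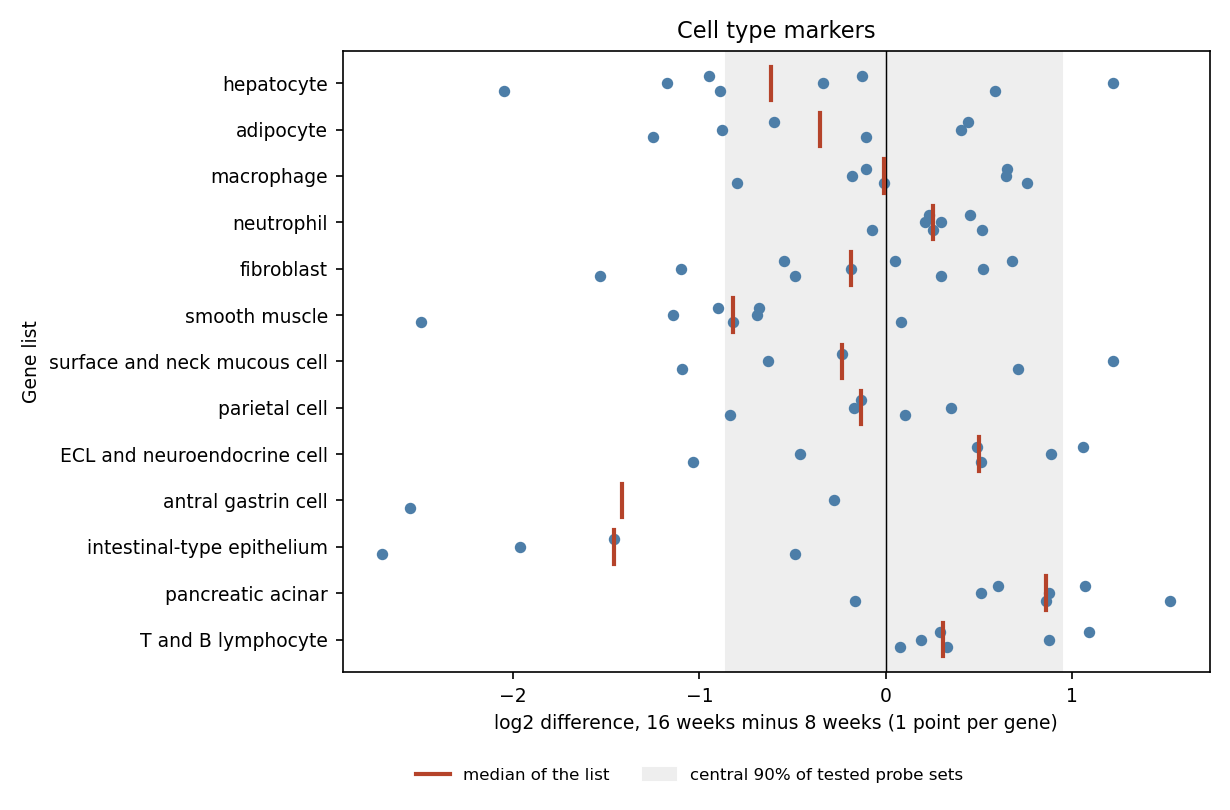
Log2 difference, 16 weeks minus 8 weeks (horizontal axis), of each tested marker gene in 13 cell type lists, with the median of each list as a red line and the central 90% of all tested probe sets shaded. Of the smooth muscle markers 6 of 7 lie left of 0, as do 5 of 5 intestinal-type ones, and T and B lymphocyte markers, 6 of 6 (4 of 5 on a common median), lie right of it.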

How the data were processed

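The data were 1 table of the authors' deposited intensity values, on a linear scale, for 12488 probe sets in 4 samples. Their computation from scans and any scaling between arrays are not given in the sources used here. Trimmed means of the arrays (2% off each end) lay within 4.76% of their common mean, so the deposited scale was kept. Mouse probes were used on RNA of another genus, so a dim probe set does not show an absent transcript, and only the same probe set was compared between samples. Symbols came from the platform annotation, which can be old. It gave 10833 of the 12422 non-control probe sets 1 symbol and 396 several, and 1193 are unnamed here.

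Values under the floor, the median over arrays of the 40th percentile (12.15), were set to it and log2 was taken. A group wholly under the floor, as for Saa3, C3ar1 and Ifngr2, thus lost its own spread, which their SE and p-values leave out. Probe sets above it on at least 2 arrays, 7883 in all, were fitted with limma 3.58.1 (R 4.3.3; lmFit and eBayes, 2-sided, Benjamini-Hochberg over all). The brightest tested probe set stood for a gene in the lists. An exact permutation test of 2 against 2 samples cannot give a 2-sided p below 0.333. Since separate animals are not stated, p-values reflect the spread among these 4 samples alone, and that spread may be technical. On simulated data of this comparison (7764 probe sets tested) limma called 2% of 2-fold, 38% of 4-fold, 72% of 8-fold and 68% of 16-fold changes, with 7 false calls. Each share is of 50 planted changes, including any decreases cut at the floor or removed by the filter before the fit.

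The genes, lists and alternatives were chosen with earlier results of these data known. Named were all probe sets of the 7 genes and, in each related list, any gene past the threshold, the 3 with the smallest unadjusted p and those without overlap differing by over 1, plus the nearest profiles and bright markers. Any other gene named was picked after its values were seen. The chief cell list had 0 markers named here. Quantile, median and control scaling, a lower floor, no filter, samples left out, a replicate block and, chosen after seeing the data, plain probe sets only were tried.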

Additional observations from a re-analysis of the deposited data

How the results depend on the processing

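With no filter on dim probe sets limma called 22 probe sets instead of 0, 11 higher and 11 lower at 16 weeks, of which 0 belonged to the 7 genes. All 22 were also tested with the filter. The fit without a filter includes 3323 probe sets under the floor on all arrays. Every other alternative gave 0 calls over all probe sets, and every alternative gave 0 among the related genes. The median difference of the 7 genes, 0.41, was 0.149 when arrays were quantile-normalized and 0.802 when they were aligned on the hybridisation controls, and it moved by less than the spread between samples under the others (0.24 to 0.59 with 1 sample left out). On the deposited scale and under these 2 scalings this median is the value of Itih3 alone, which lies near the floor. The genes themselves ran from -2.08 to 1.97, so the median describes no common shift. Of 107 values of single probe sets under the alternatives 15 moved by over 1 SD and 4 changed sign, those of Cfb and Lcn2 given above. Plain probe sets only, an alternative chosen after seeing the data, left the median at 0.41. The labels number the samples 1 and 2 in each group but do not say that a number marks a shared animal or day. Deviations of same-numbered samples correlated at -0.05, so the numbers were not taken as pairs. With the replicate block limma called 0 probe sets, and 987 instead of 1100 had an unadjusted p under 0.05. Without 8-week sample 1 that number was 591, and with the arrays on the controls 2514. Signal over background limits Saa3 and the r probe set of C2, each under the floor in 1 group, the plain probe sets of Lcn2 and Cfb, each with at least 1 array under it, and Itih3 and the 8-week values of Lbp, which lie near it.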
